A study of Rattus norvegicus with 18 samples.

Results

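The inner mitochondrial membrane carries the protein complexes of oxidative phosphorylation. Complex I, NADH dehydrogenase, passes electrons from NADH to ubiquinone. Complex III passes them on to cytochrome c, and complex IV, cytochrome c oxidase, passes them to oxygen. The proton gradient these complexes build is used by ATP synthase to make ATP, and neurons draw most of the ATP for ion pumping and synaptic activity from this route. Most of the subunits are encoded in the nucleus. The mitochondrial genome encodes the others, and those were not analysed here.

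Probes for nuclear-encoded genes of these complexes were chosen by symbol alone. A symbol had to start with Nduf, Uqcr or Atp5, or with Cox followed by a digit from 4 to 8. The rule used no measured value, though it was chosen with earlier results of these data known. It took 62 of the 22523 probes on the array. Of these, 57 reached the detection limit (p of 0.02 or below) on some array, as did 11079 probes in all, and 53 of the 57 passed that limit on all 18 arrays. The kept probes comprised 29 for complex I, 4 for complex III, 10 for complex IV, 10 for ATP synthase and 4 whose symbols share the letters but do not name a subunit (Atp5s, Atp5sl, Cox4nb and the assembly factor Ndufaf1). The 5 probes not detected on any array were Atp5g3, Cox6c1, Cox8c, Cox8h and Ndufs6. Under the rule there was no probe for Cox4i2, Cox7a1, Cox7a2, Cox7b2, Ndufa4, Ndufa4l2 or Uqcrc2.

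The cells were primary rat cortical neurons, infected the day after plating with lentivirus that carried either a scrambled control shRNA or shRNA against CHD5. CHD5 is a brain-enriched chromatin remodeling ATPase, and the study asked which genes depend on it as neurons mature. RNA was taken at day 5, day 9 or day 12, with 3 arrays for each day and shRNA, labelled a, b and c, which gave 6 groups and 18 arrays. Every culture, control cultures included, had been infected. Nothing in the sources used here says that the 3 arrays of a group came from separate animals, so the p-values measure the spread between these arrays, which may be technical. No probe in the table had the symbol Chd5, so the depletion could not be checked on the arrays.

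Gene identifiers were matched to RefSeq records, and 60 of the 62 probes had one. The records of 4 probes were not those of an intact subunit gene. The Atp5h, Ndufs6 and Cox6c1 probes carried identifiers of pseudogenes, and the Cox6b probe carried the identifier of Upk1a, a uroplakin gene. What these probes say of a subunit is therefore uncertain. Of the 4, Atp5h was detected on all 18 arrays and Cox6b on 1.

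One array stood apart. On day 9 control array b the mean signal was 134.8, against 400.2 to 789.3 on the other 17 arrays, and the SD of log2 signal was 1.108 against 1.722 to 2.016. Scaling each array to the same mean and SD, as was done here, widened the narrow range of this array. Mean log2 signal on the other 17 arrays was compared with the deviation of array b from arrays a and c. Their Pearson correlation was 0.62 across the 57 probes but -0.15 across all kept probes. Among the 57 probes, 43 were higher on array b than the mean of arrays a and c, by a median of 0.46 on the log2 scale and by up to 2.54. The median was 1.04 for the 29 brighter probes and 0.01 for the 28 dimmer ones. With quantile normalization the median was 0.00. The members' counts of calls are therefore given with and without this array, which also widened the error of comparisons that do not contain it, because all groups shared 1 estimate of the spread.

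**Figure D1:**
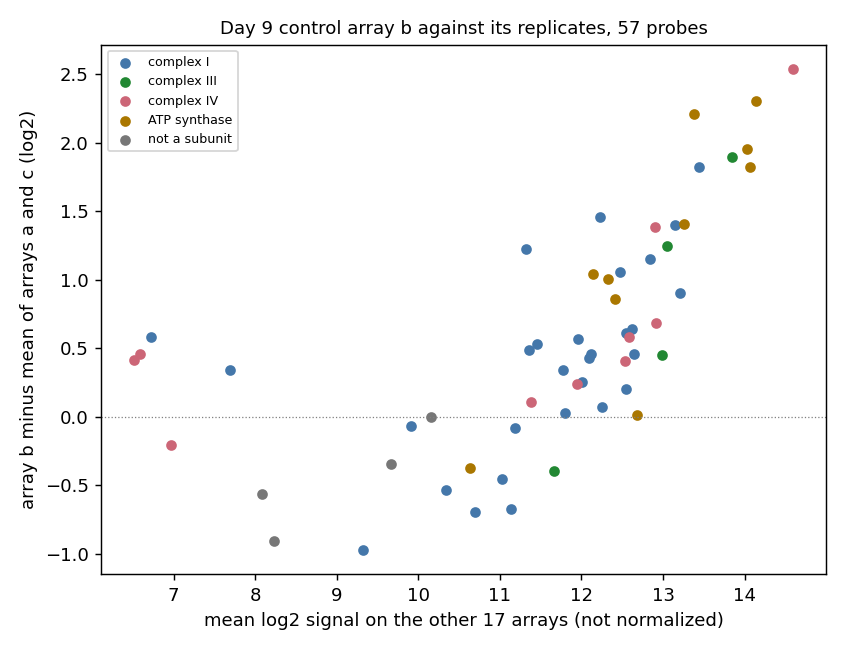
Each point is 1 of the 57 probes, coloured by complex. The horizontal axis is the mean log2 signal on the other 17 arrays, and the vertical axis is the normalized log2 signal on day 9 control array b minus the mean of day 9 control arrays a and c. Bright probes lie above 0, up to 2.54, while the 28 dimmer probes have a median of 0.01.

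The promoters of 3 genes are shown because these genes moved in different ways below: Cox6a2 rose and then fell, Ndufa7 fell, and Cox8a rose over the days in culture. Each is the 250 bases before the annotated start in RefSeq (GRCr8), 5′ to 3′ on the gene's strand, at chr1:192219717-192219966 on the minus strand for Cox6a2, chr7:15311196-15311445 on the plus strand for Ndufa7 and chr1:213833624-213833873 on the minus strand for Cox8a. Capitals mark the motifs searched for.
Cox6a2: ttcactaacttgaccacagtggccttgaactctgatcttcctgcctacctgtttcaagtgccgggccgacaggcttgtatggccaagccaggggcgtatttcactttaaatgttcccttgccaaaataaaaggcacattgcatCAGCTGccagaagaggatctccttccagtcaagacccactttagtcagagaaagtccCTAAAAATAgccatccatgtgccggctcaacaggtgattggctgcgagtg
Ndufa7: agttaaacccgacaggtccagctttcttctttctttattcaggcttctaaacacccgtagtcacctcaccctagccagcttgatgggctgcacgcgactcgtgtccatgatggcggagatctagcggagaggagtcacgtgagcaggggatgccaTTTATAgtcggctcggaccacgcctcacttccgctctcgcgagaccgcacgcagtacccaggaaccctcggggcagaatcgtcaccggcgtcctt
Cox8a: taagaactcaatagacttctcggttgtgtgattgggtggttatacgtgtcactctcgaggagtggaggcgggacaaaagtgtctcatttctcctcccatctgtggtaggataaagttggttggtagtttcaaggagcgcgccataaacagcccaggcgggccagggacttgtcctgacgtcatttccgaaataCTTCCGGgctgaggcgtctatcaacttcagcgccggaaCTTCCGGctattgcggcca

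Letters were searched on both strands of the same 250-base window of 46 subunit genes and of 27457 genes in all. The ETS letters CCGGAAG, bound by factors such as GABPA, were in 11 of the 46 promoters (23.9%) against 7.74% of all promoters, and they occur in Cox8a in 2 places. The NRF1 core GCGCATGC was in 7 (15.2%) against 2.38%. The GC box GGGCGG was in 34.8% against 32.4%, and the YY1 letters AAGATGG were in 4.35% against 4.63%. The TATA letters TATAAA were in 4.35% against 13.1%, one of them Ndufa7 in reverse complement. The next motifs, CAGCTG and CTAAAAATA, were chosen after their values or sequence were seen, so their shares are not a test of enrichment. The E-box CAGCTG was in 15.2% against 11.9%. The MEF2 letters CTAAAAATA, a motif of muscle and neuronal genes, were in Cox6a2 alone among the 46, against 0.463% of all promoters, 42 to 50 bases before the start. These are matches of letters and not measured binding sites.

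Over the days in culture these genes moved modestly, more of them upward than downward. From day 5 to day 12 the median difference of the 57 probes was 0.12 (log2) under control shRNA and 0.17 under CHD5 shRNA, while the median of all 11079 probes was -0.02 and -0.01. Under control shRNA 3 probes rose and 3 fell (limma, Benjamini-Hochberg adjusted p under 0.05), or 5.26% each way, beside 11.1% of all probes higher and 12.5% lower. Of these 3 rises, 2 were Atp5s and Atp5sl, which are not subunits, while the 3 falls (Ndufa7, Ndufa5 and Cox6a2) were of subunits. Under CHD5 shRNA 5 rose and none fell, or 8.77% higher beside a background of 8.46% higher and 8.56% lower. Before adjustment, 11 and 9 of the 57 members had a p under 0.05 under control and CHD5 shRNA, beside 33.9% and 28.7% of all probes.

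Without day 9 control array b, which belongs to neither of these days, the error shrank and the calls increased. Under control shRNA 11 probes rose and 5 fell, beside 17.4% of all probes higher and 21% lower. Under CHD5 shRNA 15 rose and 2 fell, beside 13.9% higher and 17.7% lower. The members' share was 19.3% higher and 8.77% lower under control shRNA and 26.3% higher and 3.51% lower under CHD5 shRNA. The rise of the median depended on the scaling. It was 0.01 under control shRNA and 0.10 under CHD5 shRNA with quantile normalization, and -0.00 and -0.02 with median centring.

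**Figure D2:**
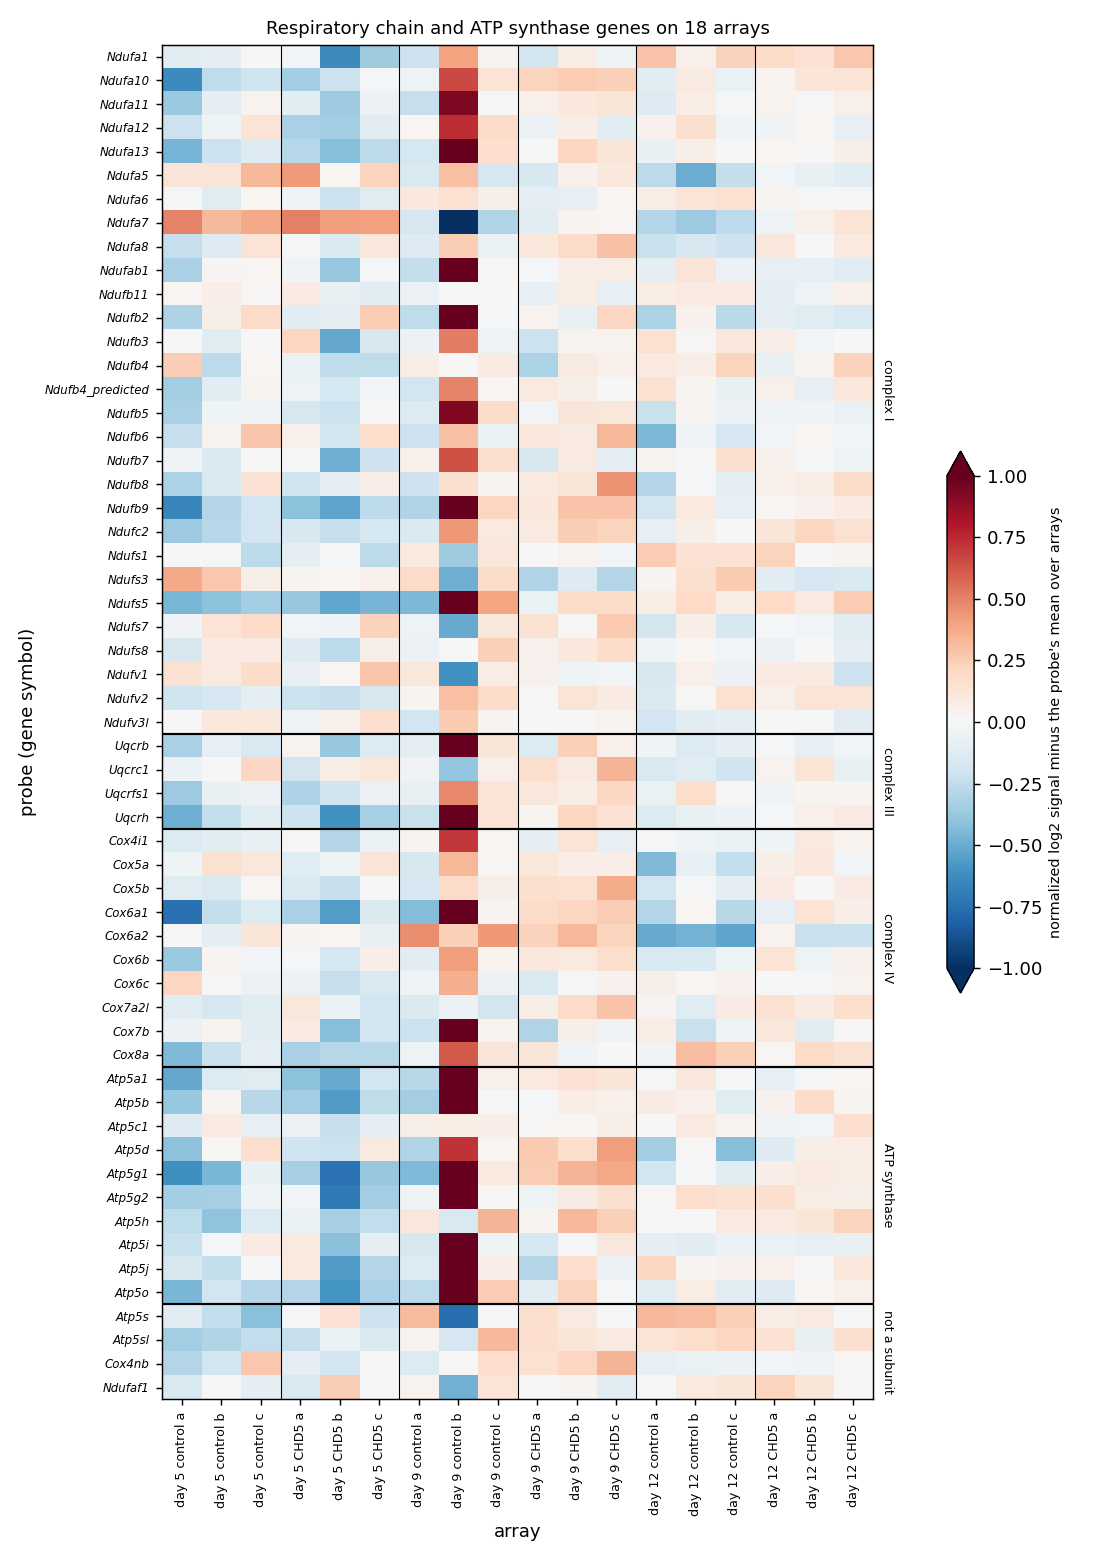
Rows are the 57 probes ordered by complex and columns the 18 arrays ordered by day and shRNA. Colour is the normalized log2 signal minus the probe's mean over arrays, limited to 1 in each direction. Several complex I and ATP synthase rows are lower at day 5, Ndufa7 and Ndufa5 are higher at day 5, and day 9 control array b stands out as a column.

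ATP synthase probes went mostly upward after scaling. The SD of log2 signal was 1.89, 1.96 and 1.86 on day 5 CHD5 shRNA arrays and 1.82, 1.78 and 1.78 on those of day 12. Before scaling, the median log2 signal of all members was 12.43, 12.37 and 11.97 on the former and 12.29, 12.00 and 12.02 on the latter. With median centring no member was called from day 5 to day 12 under CHD5 shRNA. The part of the scaling in these rises was not tested. From day 5 to day 12 under CHD5 shRNA all 10 were above 0, with a median difference of 0.35 and a range of 0.06 to 0.56, and under control shRNA 8 of 10 were above 0, with a median of 0.25. Only Atp5h, the probe with a pseudogene record, passed the test on all arrays under CHD5 shRNA, a call lost in 17 of 32 alternatives. Without array b, 6 of the 10 passed under CHD5 shRNA, where 13.9% of all probes were called higher, and 3 under control shRNA, where 17.4% were. Atp5b, the catalytic beta subunit, read 13.59, 13.37 and 13.68 at day 5 under CHD5 shRNA and 13.98, 14.12 and 13.96 at day 12, so the groups did not overlap. Its difference was 0.47 ± 0.33 (SE, n = 3, limma adjusted p = 0.385), and 0.48 ± 0.11 without array b (limma adjusted p = 0.00264). Atp5a1, the alpha subunit, differed by 0.34 under CHD5 shRNA and 0.29 under control shRNA, called in both only without array b. Atp5g1 and Atp5g2, which encode the same c subunit of the proton-driven rotor, differed by 0.56 and 0.46 under CHD5 shRNA, and both were called only without array b. The third gene of that set, Atp5g3, was not detected. Atp5c1 and Atp5d, of the central stalk, differed by 0.16 and 0.11 under CHD5 shRNA and were not called. In controls the mean of Atp5c1 was 12.471 at day 5 and 12.557 at day 12, while that of Atp5d was lower at day 12 (12.212 and 12.035).

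In complex I a few accessory subunits rose and a pair fell. Ndufs5 read 11.70, 11.75 and 11.81 in day 5 control arrays and 12.23, 12.36 and 12.23 at day 12. With CHD5 shRNA the day 5 arrays read 11.78, 11.63 and 11.69 and the day 12 arrays 12.36, 12.25 and 12.41. The days did not overlap under either shRNA, with differences of 0.52 ± 0.27 and 0.64 ± 0.27 (SE) that passed the test only without array b (limma adjusted p = 0.00532 and 0.00134). Ndufa1, a small membrane subunit encoded on the X chromosome, rose by 0.54 ± 0.15 under CHD5 shRNA (limma adjusted p = 0.0166) and was 0.26 higher under control shRNA, which did not pass (limma adjusted p = 0.24). Ndufc2 rose by 0.35 ± 0.12 and Ndufv2, a core iron-sulfur subunit, by 0.31 ± 0.09 under CHD5 shRNA, and the call of Ndufc2 was lost in 18 of 33 alternatives. Core subunits were mixed, since Ndufs1 was 0.27 and 0.20 higher under control and CHD5 shRNA, while Ndufv1 was -0.20 and -0.08 and Ndufs7 -0.19 and -0.11, none of them called on all arrays. Ndufb4 had 2 probes, which gave 0.13 and 0.18 in controls and 0.25 and 0.11 under CHD5 shRNA, and neither was called. The second was near the detection limit, with a mean signal of 104.4 and detection on 7 of 18 arrays. The first had a mean signal of 944.8 and was detected on all 18.

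Ndufa7 and Ndufa5, accessory subunits of complex I, went the other way. Ndufa7 read 9.65, 9.47 and 9.53 on the day 5 control arrays, then 8.98, 7.94 and 8.85 on those of day 9, then 8.86, 8.79 and 8.88 on those of day 12. With CHD5 shRNA the day 5 arrays read 9.65, 9.57 and 9.56, those of day 9 read 9.04, 9.18 and 9.16, and those of day 12 read 9.10, 9.20 and 9.29. Day 5 lay above both later days under each shRNA. The fall from day 5 to day 12 was -0.70 ± 0.18 in controls (SE, limma adjusted p = 0.00693) and -0.40 ± 0.18 under CHD5 shRNA (limma adjusted p = 0.141), or -0.41 ± 0.08 without array b (limma adjusted p = 0.000547). Ndufa5 fell by 0.53 ± 0.13 in controls (limma adjusted p = 0.00702), and was 0.29 lower under CHD5 shRNA, called only without array b.

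Complex III had 4 probes and none was called on all arrays. Uqcrc1, a core protein, was -0.20 in controls and 0.03 under CHD5 shRNA from day 5 to day 12, and Uqcrfs1, the Rieske iron-sulfur protein, was 0.20 under both. Uqcrh, the hinge protein, was 0.20 in controls and 0.42 under CHD5 shRNA, and only the latter was called without array b (limma adjusted p = 0.00706).

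The 4 genes that are not subunits supplied the other rises in controls. Atp5s, which RefSeq names Dmac2l, rose by 0.55 ± 0.18 (SE, limma adjusted p = 0.0352) and Atp5sl, named Dmac2, by 0.47 ± 0.11 (limma adjusted p = 0.00371). Under CHD5 shRNA none of the 4 was called, with all above 0 and at most 0.22.

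In complex IV the members did not move together in controls, with a median of 0.00 and 5 of 10 probes above 0, while under CHD5 shRNA 9 of 10 were above 0, with a median of 0.17. The 10 include Cox6b and Cox6c, each detected on only 1 array, a day 5 control, so their signs carry little weight. Cox8a rose by 0.43 ± 0.14 in controls (SE, limma adjusted p = 0.0354) and 0.42 ± 0.14 under CHD5 shRNA (limma adjusted p = 0.0479), the only member called under both shRNAs on all arrays (1.75% of members, beside 6.78% of all probes called higher under both and 5.96% called lower under both). The CHD5 shRNA call was lost in 17 of 33 alternatives and the control call in 8. Cox5a, by contrast, was -0.33 ± 0.12 in controls (limma adjusted p = 0.057, or 0.00885 without array b) and 0.06 under CHD5 shRNA. Cox4i1, the common form of subunit IV, differed by 0.06 and 0.14. The ubiquitous Cox6a1 differed by 0.19 and 0.38, and Cox7b by -0.02 and 0.18, none of them called.

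Cox6a2, the form of subunit VIa known from heart and skeletal muscle, rose and then fell. The day 5 control arrays read 6.94, 6.84 and 7.06, those of day 9 read 7.40, 7.18 and 7.37, and those of day 12 read 6.44, 6.46 and 6.41. With CHD5 shRNA the day 5 arrays read 6.97, 6.95 and 6.86, those of day 9 read 7.17, 7.27 and 7.16, and those of day 12 read 6.97, 6.72 and 6.72. Control values were thus highest on day 9 and lowest on day 12, with no overlap between days. The rise from day 5 to day 9 in controls was 0.37 ± 0.10 (SE, limma adjusted p = 0.0108), a call lost in 8 of 33 alternatives, among them quantile normalization and neqc, with adjusted p of at most 0.285, and the fall from day 9 to day 12 was -0.88 ± 0.10 (limma adjusted p = 3.74e-05). Under CHD5 shRNA the fall was -0.40 ± 0.10 (limma adjusted p = 0.0496), a call lost in 21 of 33 alternatives. The signal was near the detection limit, since Cox6a2 was detected on 12 of 18 arrays and on none of the day 12 control arrays. Against the lowest detected signal there, day 9 controls, of which 2 of 3 arrays detected it, were at least 1.49-fold higher and day 5 controls at least 1.15-fold higher.

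**Figure D3:**
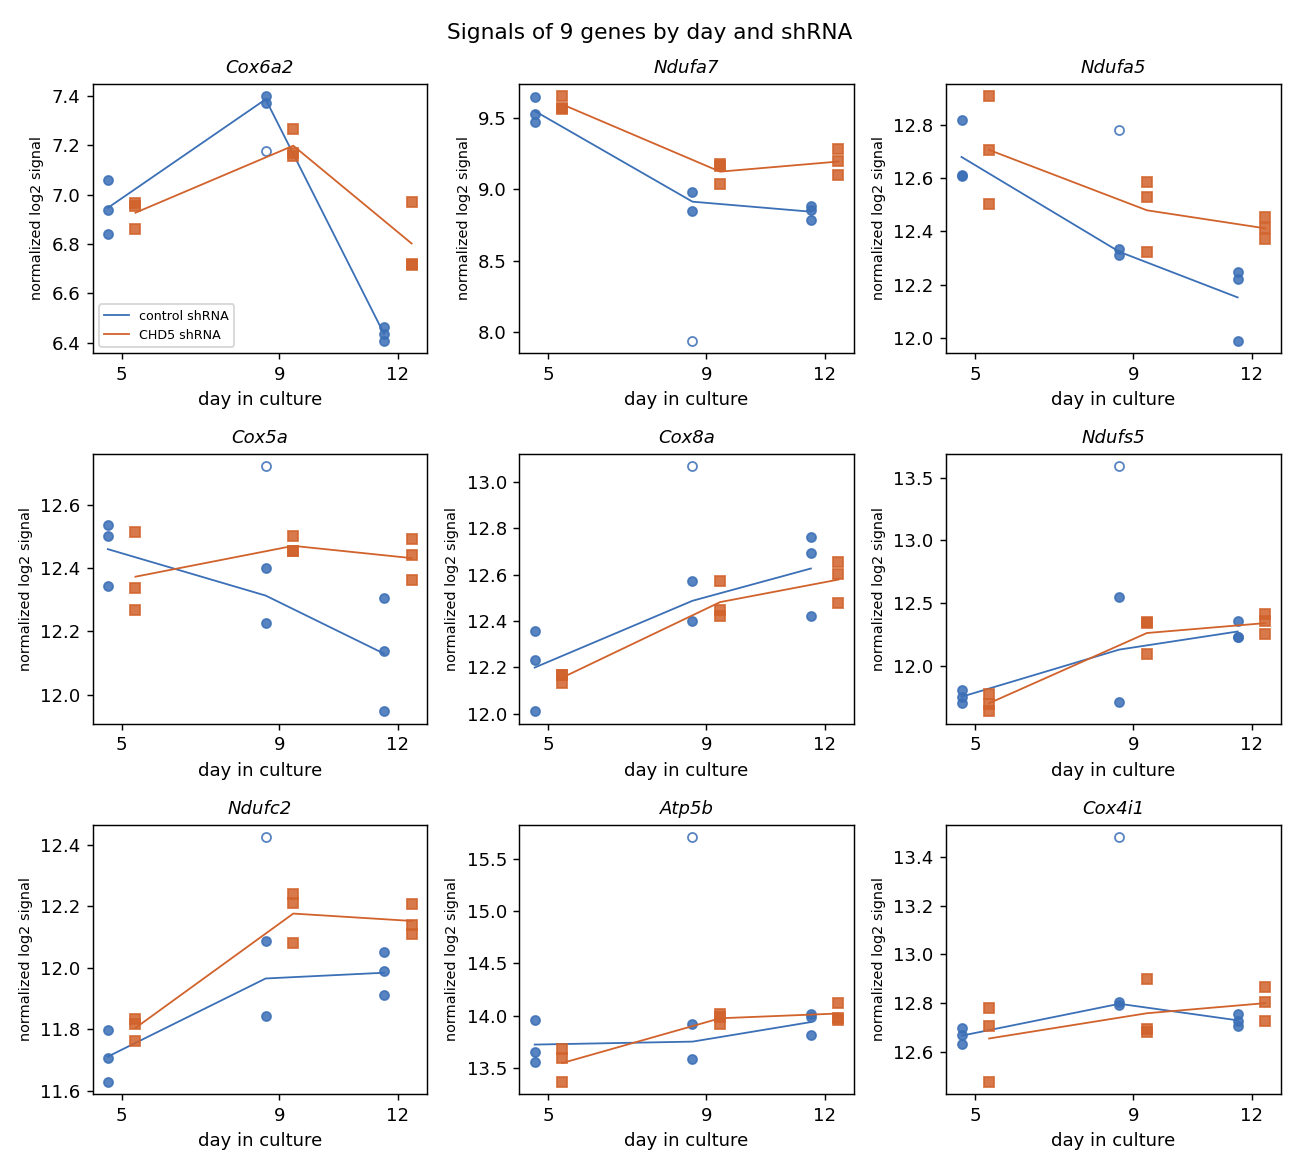
Each panel plots normalized log2 signal against day in culture for 1 gene, with circles for control shRNA and squares for CHD5 shRNA. Lines join group means and leave out the open circle, day 9 control array b. Ndufa7 and Ndufa5 are highest at day 5, Cox8a, Ndufs5 and Ndufc2 are lowest at day 5, and Cox6a2 in controls peaks on day 9 and lies between 6.41 and 6.46 on day 12.

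The change from day 5 to day 12 ran similarly under both shRNAs, which share no array. Across the 57 probes the Pearson correlation of the differences was 0.819, beside 0.879 across all 11079 probes, and the sign was the same for 46 of 57 probes (80.7%) beside 81.3% of all. These are correlations across genes, which are not independent replicates. Without array b, 8 members were called higher under both shRNAs (14% of members, beside 10.5% of all probes) and 2 lower under both (3.51% beside 12.3%). Atp5a1, Atp5g2, Atp5h, Cox8a, Ndufa10, Ndufa13, Ndufc2 and Ndufs5 were higher at day 12 in both, and Ndufa5 and Ndufa7 were lower in both.

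**Figure D4:**
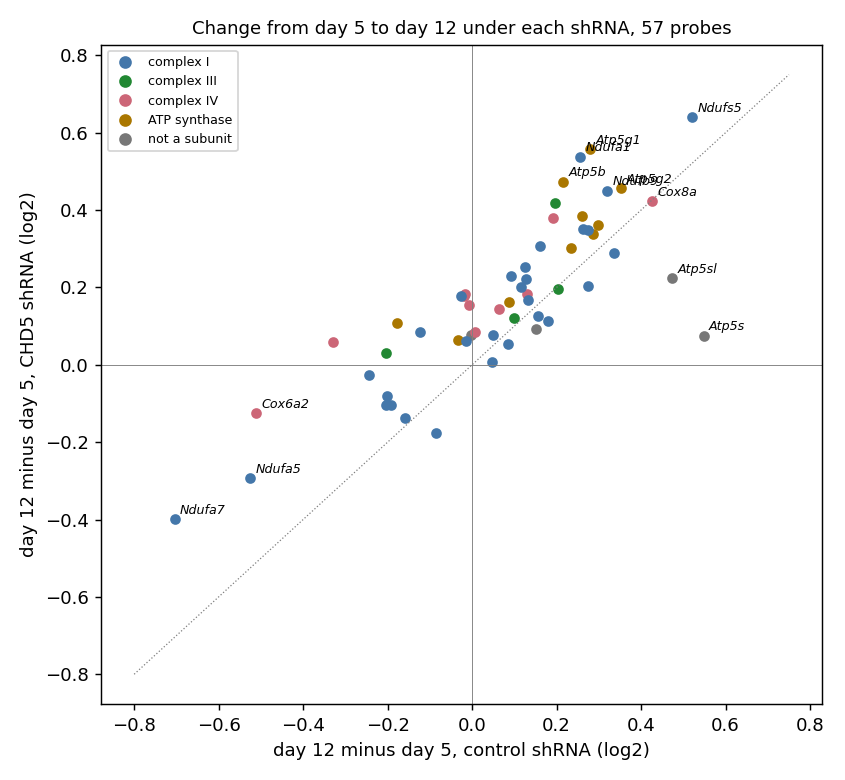
Each point is 1 of the 57 probes, with the log2 difference of day 12 minus day 5 under control shRNA on the horizontal axis and under CHD5 shRNA on the vertical axis. The dotted line marks equal change, and genes past 0.42 in either direction are named. Cox6a2 lies at -0.51 in controls and -0.12 under CHD5 shRNA.

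From day 5 to day 9 the array that stood apart took part in the control comparison. On all arrays 10 probes rose and 1, Ndufa7, fell in controls (17.5% and 1.75% of members, beside 9.18% of all probes higher and 12.8% lower), with a median difference of 0.27. Without array b, 6 rose and 2 fell (beside 10.6% and 10.1%) and the median was 0.10. Ndufb9 and Ndufs5 had differences of 0.94 and 0.86 on all arrays and 0.34 and 0.39 without array b, which did not pass. Ndufa13, also known as GRIM-19, was 0.73 with array b (limma adjusted p = 0.0419) and 0.27 without (limma adjusted p = 0.103), and its call was lost in 21 of 33 alternatives. Ndufa10 rose in both fits, by 0.61 ± 0.15 and 0.42 ± 0.12 (SE, limma adjusted p = 0.00759 and 0.0187). Ndufa7 fell in both, by 0.96 and 0.65.

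Under CHD5 shRNA, Atp5h (0.41 ± 0.12, SE, limma adjusted p = 0.0395) and Cox5b (0.36 ± 0.11, limma adjusted p = 0.0411) rose from day 5 to day 9. They were 3.51% of members, beside 4.61% of all probes higher and 4.72% lower. Day 5 CHD5 shRNA array b had the lowest median deviation of the members among the 18 arrays (-0.23). When it was left out, no member was called and the median difference was 0.15. The call of Atp5h was lost in 14 of 32 alternatives and that of Cox5b in 18 of 33. Ndufc2 was 0.37 higher (limma adjusted p = 0.0502). Without day 9 control array b, 21 rose and 2 fell (36.8% and 3.51%), beside 11.4% of all probes higher and 13.9% lower. All 10 ATP synthase probes, all 10 complex IV probes and all 4 complex III probes were above 0, as were 24 of 29 complex I probes, and the median of the 57 was 0.21. Of the complex IV probes, Cox6b and Cox6c were detected on no array of these groups. These differences are after scaling, and the calls of Atp5h and Cox5b were lost with median centring. Before scaling, the members' median log2 signal was 12.43, 12.37 and 11.97 on the day 5 CHD5 shRNA arrays. On those of day 9 it was 11.92, 11.70 and 11.85. The mean signal of all probes was also higher on the day 5 arrays. From day 9 to day 12, 1 member was called under each shRNA. It was Cox6a2, which fell in both, beside 1.21% of all probes lower and 2.95% higher in controls and 0.415% lower and 0.957% higher under CHD5 shRNA. Without day 9 control array b it was again the 1 member called under each, beside 3.08% lower and 3.15% higher in controls and 1.95% lower and 2.96% higher under CHD5 shRNA.

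Between the shRNAs few members were called. At day 5 no member was called, none had an unadjusted p under 0.05, and differences ran from -0.27 to 0.24 with a median of -0.04. The background was 0.126% of all probes called lower, 0.0451% called higher and 5.66% at an unadjusted p under 0.05. Without array b again no member was called, with 5 at an unadjusted p under 0.05 beside 11.8% of all probes, and 1.02% of all probes were called lower and 0.442% higher. On all arrays the smallest p-values belonged to Ndufa1 (-0.27 ± 0.15, SE), Cox6c and Ndufa12 (-0.22 ± 0.14). Cox6c was kept only through 1 day 5 control array, the 1 array that detected it, so its difference is not given. Groups did not overlap for 3 members (5.26%) beside 11% of all probes, and for 3 arrays against 3 the smallest two-sided p of an exact permutation test is 0.1.

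At day 9 no member was called on all arrays, beside 2.25% of all probes lower and 3.65% higher. Of the 57 members, 5 had an unadjusted p under 0.05, beside 20.2% of all probes. The differences ran from -0.73 to 0.53 with a median of -0.11, and from -0.44 to 0.51 with a median of 0.10 without array b, so the direction of the median turned on that array. Cox7a2l, a factor tied to respiratory supercomplexes, read 11.09, 11.17 and 11.05 in controls and 11.29, 11.42 and 11.52 under CHD5 shRNA, so the groups did not overlap. Its difference was 0.31 ± 0.10 (SE, limma adjusted p = 0.0691), and 0.35 ± 0.10 without array b (limma adjusted p = 0.0279). Ndufa7 was 0.53 higher (limma adjusted p = 0.0841) and Uqcrc1 0.33 higher (limma adjusted p = 0.121), and without array b they were 0.21 and 0.20 higher and neither passed. The Ndufa7 difference passed in 4 of 33 alternatives. Without that array Atp5g1 was 0.51 ± 0.15 higher (limma adjusted p = 0.0405), after -0.24 with it, and Ndufs3, a core subunit of complex I, differed by -0.44 ± 0.10 (limma adjusted p = 0.00721), after -0.20 with it. That made 1 lower and 2 higher, or 1.75% and 3.51% of members, beside 6.6% and 4.02% of all probes. Without control array a, which leaves array b as 1 of only 2 control arrays, 6 members were called lower (10.5%) and 1 higher (1.75%), beside 4.72% of all probes lower and 8.67% higher. Groups did not overlap for 7.02% of members beside 20.6% of all probes.

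At day 12 Cox6a2 was the 1 member called, 1.75% of members beside 2.23% of all probes higher and 3.24% lower, and the members' differences ran from -0.29 to 0.37. Cox6a2 was 0.37 ± 0.10 higher under CHD5 shRNA than in controls (SE, limma adjusted p = 0.0306). Because no control array detected it and 1 of 3 CHD5 shRNA arrays did, the bound was at least 1.04-fold. The call was lost with quantile normalization (0.34, limma adjusted p = 0.0906), with median centring, with neqc and when any 1 of the 6 day 12 arrays was left out (0.28 to 0.41), and over all alternatives the adjusted p ran from 4.98e-05 to 0.232. Cox5a was 0.30 ± 0.12 higher (limma adjusted p = 0.197) and Ndufa8 0.27 ± 0.11 higher (limma adjusted p = 0.234). Without array b, Cox6a2, Cox5a and Ndufa7 were called higher and Ndufs3 lower, or 5.26% and 1.75% of members beside 6.13% of all probes higher and 6.9% lower. Ndufs3 read 10.99, 11.12 and 11.22 in day 12 controls and 10.86, 10.79 and 10.81 under CHD5 shRNA, so the groups did not overlap, and the difference was -0.29 ± 0.14 on all arrays (limma adjusted p = 0.335). Groups did not overlap for 17 members (29.8%), 13 higher and 4 lower, beside 38.2% of all probes.

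**Figure D5:**
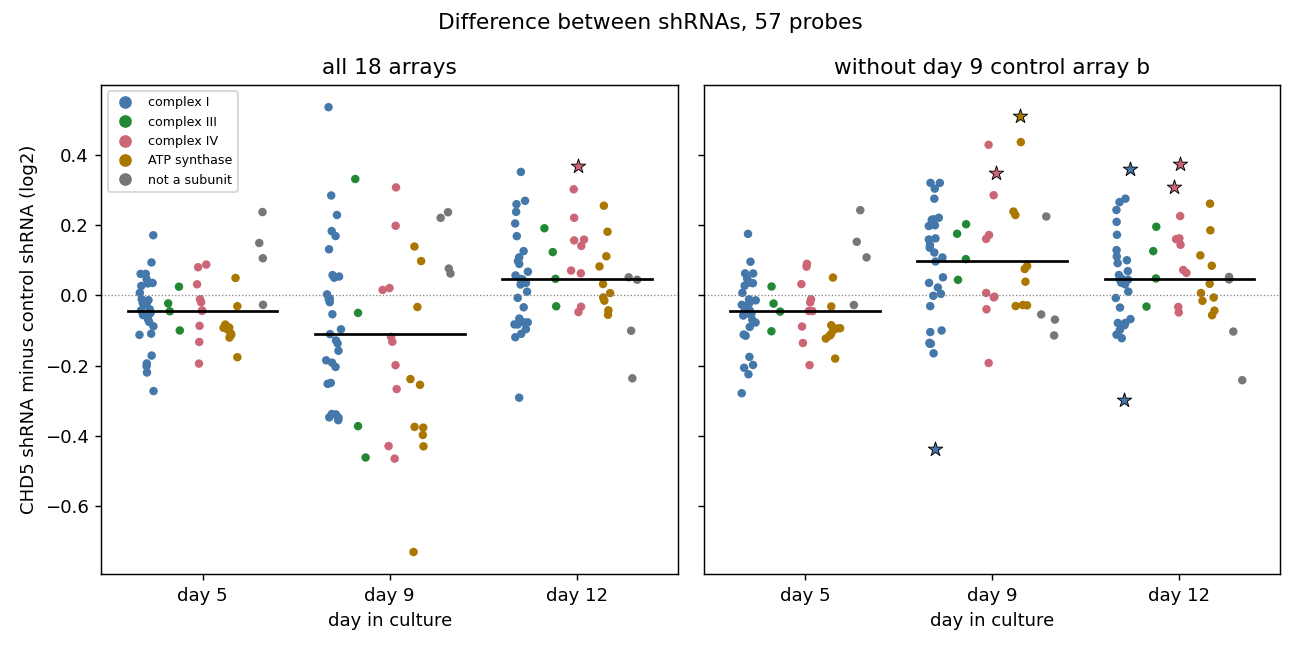
Points are the 57 probes, coloured by complex, with the log2 difference of CHD5 shRNA minus control shRNA on the vertical axis at each day, on all arrays (left) and without day 9 control array b (right). Stars are probes with an adjusted p under 0.05 and black lines are medians, which at day 9 are -0.11 with that array and 0.10 without it.

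A change of the shRNA difference between days was tested directly. No member passed from day 5 to day 9, from day 9 to day 12 or from day 5 to day 12 in limma, beside 0%, 0% and 0.153% of all probes. Of the 57 members, 1, 1 and 2 had an unadjusted p under 0.05, beside 7.3%, 2.36% and 6.75% of all probes. Without array b there were again none, beside 0.623%, 0.00903% and 2.36%. The difference of Cox6a2 between shRNAs grew by 0.39 from day 5 to day 12 (limma adjusted p = 0.414, or 0.0938 without array b) and by 0.48 from day 9 to day 12 (limma adjusted p = 0.994). The falls of Cox6a2, Ndufa7 and Ndufa5 to day 12 were thus not shown to differ between the shRNAs.

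Other genes of the pathway were followed from a separate list, of which 30 were kept. From day 5 to day 12 on all arrays, 4 rose in controls and 2 under CHD5 shRNA, with none called lower. The background was 11.1% of all probes higher and 12.5% lower in controls, and 8.46% and 8.56% under CHD5 shRNA. Without array b, 10 rose and 3 fell in controls, beside 17.4% of all probes higher and 21% lower. Under CHD5 shRNA 9 rose and 4 fell, beside 13.9% and 17.7%. Complex II, succinate dehydrogenase, supplied most of the calls on all arrays. Sdhc rose by 0.59 and 0.66, Sdhd by 0.48 in controls, and Sdha by 0.40 under CHD5 shRNA. In controls Etfdh, which feeds electrons from fatty acid oxidation to ubiquinone, rose by 0.61, and Atpaf2, an assembly factor of ATP synthase, by 0.36. Between the shRNAs none of the 30 was called at any day on all arrays. Without array b, 3 were lower and 1 higher on each of the later days, beside 6.6% and 4.02% of all probes on day 9 and 6.9% and 6.13% on day 12. Among the lower were Etfa (-0.70 and -0.59) and, on day 12, Tfam (-0.34), which packages mitochondrial DNA. Gabpb1 and Yy1, regulators of mitochondrial genes, fell from day 5 to day 9 in controls, by 0.92 and 0.60, and by 0.69 and 0.39 without array b.

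Markers of other cell types moved over the same arrays. All 9 kept astrocyte markers rose from day 5 to day 12 under each shRNA, and their summed normalized signal ran from 8380 to 8840 in day 5 controls and from 47900 to 52100 in day 12 controls. Under CHD5 shRNA it ran from 6630 to 6960 and from 27100 to 28600. Of the 9, 7 were called lower under CHD5 shRNA on day 9, as were 6 on day 12. Of 9 oligodendrocyte lineage markers, 8 were called higher in controls and 7 under CHD5 shRNA from day 5 to day 12, and 2 were called lower under CHD5 shRNA at days 9 and 12. Of 8 neuronal markers none was called lower under CHD5 shRNA, and Tubb3 was called higher at days 9 and 12, by 0.55 and 0.53. The median difference of the 8 was -0.07 at day 5, 0.11 at day 9 and 0.11 at day 12. Nefl was -0.20, 0.13 and -0.12 on these days, not called on any. Of 4 fibroblast markers, 3 rose and 1 fell from day 5 to day 12 in controls, and 2 were called lower under CHD5 shRNA on day 9 and 2 on day 12. Their summed signal ran from 692 to 914 in day 5 controls and from 1470 to 1630 in day 12 controls. Of the microglial markers Aif1 was detected on 1 array and Cd68 on 3. The part of these shifts in the results above was not tested, and in bulk cultures fewer cells of a type and less RNA per cell cannot be told apart.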

How the data were processed

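Total RNA was hybridized to Illumina RatRef-12 arrays. The deposited table holds, per the file headers, probe signal intensity and a detection p-value exported from GenomeStudio 1.1.1 with no normalization and no background subtraction by the authors. A second measurement of the 6 replicate a arrays entered only an alternative. Genome build of the probe coordinates was not given in the sources used here.

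A probe was kept where any array gave it a detection p-value of 0.02 or below. Log2 intensity was Z-transformed within each array, following the study's methods, and returned to the log2 scale with the mean SD over arrays. All 18 arrays were fitted in limma 3.58.1 (R 4.3.3) as 6 groups with empirical Bayes, and p-values were Benjamini-Hochberg adjusted over all 11079 probes of a contrast (limit 0.05). The fit was tested on simulated data. Values are log2 differences ± SE. The number of arrays limits the precision.

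Members and lists were chosen with earlier results of these data known. Named genes were the 4 largest called falls and rises per contrast (the 3 smallest p-values where fewer than 3 were called), paralogous and core subunits, and members called for a change between days. Genes named from the fit without day 9 control array b, and the promoter motifs CAGCTG and CTAAAAATA, were chosen after their values or sequence were seen. Promoters came from RefSeq (GRCr8).

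Same-letter arrays were checked for pairing. Their deviations correlated above 0.1 in all 3 pairs for CHD5 shRNA against control at day 5 (0.168 to 0.377) and for day 12 against day 9 in controls (0.135 to 0.258), and not in the other contrasts.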

Additional observations from a re-analysis of the deposited data

How the results depend on the processing

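Counts of members called are compared here with those on all arrays. The share of all probes called also moves with the setting. At day 12, CHD5 shRNA against control gave 2.23% of all probes higher on all arrays and 6.13% without array b. For most settings below that share is not given, so a larger count does not show a change particular to the members. CHD5 shRNA minus control shRNA at day 5 gave 0 in every alternative. At day 9 (0 on all arrays) it gave 1 with quantile normalization, 1 with neqc, 1 with array weights, 3 with quantile normalization and no array b, and 0 to 7 when 1 array was left out, 7 without control array a and 3 without control array b. At day 12 (1) it gave 0 with median centring, neqc, no detection filter or a fold of at least 1.5, 8 with only the groups compared, 13 with array weights, 3 with quantile normalization and no array b, and 0 to 4 leaving out 1 array. The change of the difference from day 5 to day 12 (0) gave 1 with quantile normalization and no array b.

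Day 9 minus day 5 in controls (11) gave 3 with median centring or array weights, 4 with no detection filter, 5 with a fold of at least 1.5 or a Z-ratio beyond 1.5, 0 with only the groups compared, and 3 to 33 leaving out 1 array, 33 without control array a of day 9. Median centring, which keeps the low SD of array b, reversed Ndufb9 (-0.086), Ndufa13 (-0.21), Ndufa10 (-0.12), Cox8a (-0.26) and Ndufc2 (-0.24). Day 12 minus day 9 in controls (1) gave 0 with only the groups compared and 1 to 19 leaving out 1 array, 19 without its day 9 array a. Day 12 minus day 5 in controls (6) gave 13 with quantile normalization, 3 with median centring or no detection filter, 10 with neqc, 1 with a fold of at least 1.5 or a Z-ratio beyond 1.5, 11 with only the groups compared, 15 with quantile normalization and no array b, and 4 to 16 leaving out 1 array.

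Under CHD5 shRNA, day 9 minus day 5 (2) gave 9 with quantile normalization, 0 with median centring, no detection filter, a fold of at least 1.5 or a Z-ratio beyond 1.5, 6 with neqc, 5 when a group had to detect the probe on its 3 arrays, 24 with only the groups compared, 29 with array weights, 14 with quantile normalization and no array b, 1 without the probes of other records, and 0 to 23 leaving out 1 array, 0 without CHD5 array b of day 5. Day 12 minus day 9 (1) gave 0 with quantile normalization, median centring, neqc, no detection filter or a fold of at least 1.5, 5 with only the groups compared, 6 with array weights, and 0 to 1 leaving out 1 array. Day 12 minus day 5 (5) gave 12 with quantile normalization, 0 with median centring, no detection filter, a fold of at least 1.5 or a Z-ratio beyond 1.5, 18 with only the groups compared, 29 with array weights, 15 with quantile normalization and no array b, and 0 to 17 leaving out 1 array, 0 without CHD5 array b of day 5. Array weights were estimated without full convergence.

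With array letter as a replicate block across the days, day 9 minus day 5 under CHD5 shRNA gave 4 and day 12 minus day 9 gave 0. With a replicate block within a day, CHD5 shRNA minus control at day 9 gave 1 and day 12 minus day 9 under CHD5 shRNA gave 0. The replicate block moved no other count by over 1.5 times. Quantile normalization without array b, and leaving out the probes whose records are not of a subunit gene, were chosen after seeing the data. The causes of these differences were not tested. Probes near the detection limit, Cox6a2 among them, measure small changes poorly.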
